A study of Homo sapiens with 12 samples.

Results

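The mRNAs of 9 nonsense-mediated decay (NMD) factors were followed through transcription inhibition in U2OS cells, a human osteosarcoma line. The factors were UPF1, UPF2, UPF3A, UPF3B, SMG1, SMG5, SMG6, SMG8 and SMG9, chosen by name and not by a rule on any measured value. Earlier results of these data were known when they were chosen. All 9 were among the 22379 genes of the table and among the 13811 that were tested, those whose untreated libraries averaged 10 or more. The 12 libraries fell into 6 groups of 2 replicates: cells with a nontargeting guide (NONT), a guide against NUP93 (NUP93-KO) or a guide against EXOSC5 (EXOSC5-KO), each either untreated or exposed to 1 μM triptolide for 8 h. NUP93 is a scaffold protein of the nuclear pore, and EXOSC5 is a core subunit of the RNA exosome, which degrades RNA from its 3′ end. Triptolide binds XPB in the general factor TFIIH and blocks initiation by RNA polymerase II, so that mRNA made before the drug is not replaced.

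Every genotype, the control included, came from transient transfection with a plasmid carrying Cas9, a guide and puromycin resistance, followed by drug selection, so each was a pool and not a clone. The knockout pools held edited and possibly unedited cells. The methods of the study give the NUP93 and EXOSC5 guides a shorter selection and regrowth than the rest of their guide set, in which NONT is listed, so genotype and length of selection cannot be told apart. Nothing in the labels says that the replicates were separate cultures, so the p-values measure the spread between these samples, which may be technical. Values of the 3 genotypes that stand in a row follow the order NONT, NUP93-KO, EXOSC5-KO.

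NMD removes mRNAs on which a ribosome stops too early, for instance at a stop codon that lies upstream of an exon junction complex. The helicase UPF1 is recruited to the stalled ribosome, UPF2 and a UPF3 protein connect it to the junction complex, and the kinase SMG1, held in check by SMG8 and SMG9, phosphorylates it. SMG6 then cuts the mRNA near the stop codon, while SMG5 brings in deadenylation and decapping. The mRNAs of several of these factors are themselves degraded by NMD, through an upstream open reading frame or a long 3′ untranslated region (UTR), which places them under feedback control.

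The annotation (GENCODE release 44, GRCh38, 1 reference transcript per gene) showed how differently these transcripts are built. SMG8 (ENSG00000167447, chromosome 17, 59209400 to 59215239, plus strand) had 4 exons and a 3′ UTR of 228 bases. SMG1 (ENSG00000157106, chromosome 16, 18804860 to 18926408, minus strand) had 63 exons in 16062 bases, with a 3′ UTR of 4709 bases. The median tested gene had 9 exons and a 3′ UTR of 1370 bases, so SMG8 stood at the short end and SMG1 at the long end. On plus strands lay UPF1 (ENSG00000005007, chromosome 19, 18831959 to 18868230, 24 exons) and UPF3A (ENSG00000169062, chromosome 13, 114281601 to 114305817, 10 exons). On minus strands lay UPF2 (ENSG00000151461, chromosome 10, 11920022 to 12043170, 22 exons), UPF3B (ENSG00000125351, chromosome X, 119834022 to 119852998, 11 exons) and SMG5 (ENSG00000198952, chromosome 1, 156249224 to 156282825, 22 exons). So did SMG6 (ENSG00000070366, chromosome 17, 2059839 to 2303785, 19 exons) and SMG9 (ENSG00000105771, chromosome 19, 43727983 to 43754962, 14 exons). None of the 9 reference transcripts had an exon junction more than 50 bases behind its stop codon, a feature of 0.3% of the 12989 annotated genes tested.

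Short sequence windows are given for the letters TATTTAT, the centre of an AU-rich element of the kind that promotes mRNA decay, and for an ATG upstream of the main reading frame. Capitals mark the motif, and all windows are the sense strand of GRCh38 read 5′ to 3′. TATTTAT was searched on the transcript strand of the 3′ UTR only, and it stood in 3 of the 9 members against 36.7% of the annotated genes. UPF1 (chr19:18867925-18867949), UPF3A (chr13:114305429-114305453) and SMG8 (chr17:59215164-59215188) had 1 copy each.
UPF1: agggactctTATTTATtcccattgc
UPF3A: tggtaggaaTATTTATcagagttca
SMG8: tattgttgaTATTTATtgtaaacgt

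An upstream ATG was present in 4 of the 9 members, against 42.3% of the annotated genes, and each of the 4 met an in-frame stop before the main reading frame. The windows lie at chr10:12042761-12042785 for UPF2, chr16:18926048-18926072 for SMG1, chr1:156282788-156282812 for SMG5 and chr19:43754919-43754943 for SMG9, all on the minus strand. The frames ran to 12, 6, 30 and 92 codons in that order.
UPF2: acccggggctaATGttgacaacagg
SMG1: ggcgcttggccATGtcgtgtcgggg
SMG5: gcctcacagcgATGgcggccgagca
SMG9: gccctcagcgcATGcgcaggacgag

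These matches describe the transcripts and are not evidence that a factor acts there. Values of SMG1 and UPF3A carry an uncertainty of their own, since the annotation names 9 pseudogene copies of SMG1 on chromosome 16 and 3 of UPF3A on chromosomes 9 and 17, among which the authors' pseudoalignment could have divided reads. SMG8 shares exons on its strand with the read-through gene ENSG00000265303, which was listed at 0 in 11 of 12 libraries and at 4.15 in the other.

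Approximate depth was 8.60 to 11.96 M reads per library, and the deposited values were normalised to ERCC spike-in RNA added in proportion to cell number. The replicates of NONT untreated stood apart in scale: the median gene was lower by 0.51 on the log2 scale in the first than in the second. In NONT triptolide the shift went the other way, with the first higher than the second by 0.25. The first minus the second was −0.14 to 0.11 in the other groups. Because such a shift moves all genes of a library together, each comparison is also given relative to the typical gene, after the libraries were rescaled by the median of their ratios over the genes tested. Of the markers of this lineage, VIM and SPARC were at 24275 or more and at 7368 or more in every library and RUNX2 was at 218 to 404 in untreated cells, while COL1A2 stayed at 4.05 to 42.0. EPCAM and CDH1 were at 13.5 to 69.7, PTPRC and ALB at no more than 6.65, and CD3E was listed at 0 throughout. The targeted genes were lower in their own knockouts relative to the typical gene: NUP93 by −0.49 on the log2 scale (limma, adjusted p = 0.043) in untreated NUP93-KO cells and EXOSC5 by −1.18 (adjusted p = 0.0052) in untreated EXOSC5-KO cells. On the spike-in scale neither passed the test without drug (adjusted p = 0.93 and 0.15). NUP93 was also lower in untreated EXOSC5-KO cells, by −0.39 relative to the typical gene (adjusted p = 0.039), so its fall was not particular to its own knockout.

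Untreated levels per kilobase of transcript were compared first. SMG5 was the most abundant, at 803 to 1170 units per kb over the 6 untreated libraries. UPF1 (209 to 430.2), SMG8 (210.3 to 418), UPF3A (234 to 373), UPF2 (179 to 285) and SMG9 (169.85 to 312) overlapped one another and could not be ordered. SMG6, at 134 to 201, overlapped the lower values of UPF2 and SMG9. UPF3B (66.6 to 101) and SMG1 (46.9 to 101) lay below these and overlapped each other. After triptolide SMG5 was still the highest at 256 to 546 units per kb, but SMG8 had gone to the bottom of the order at 4.20 to 17.0, which overlapped SMG9 (11.9 to 28.2), UPF3B (14.1 to 29.1) and SMG1 (12.99 to 41.0).

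**Figure D1:**
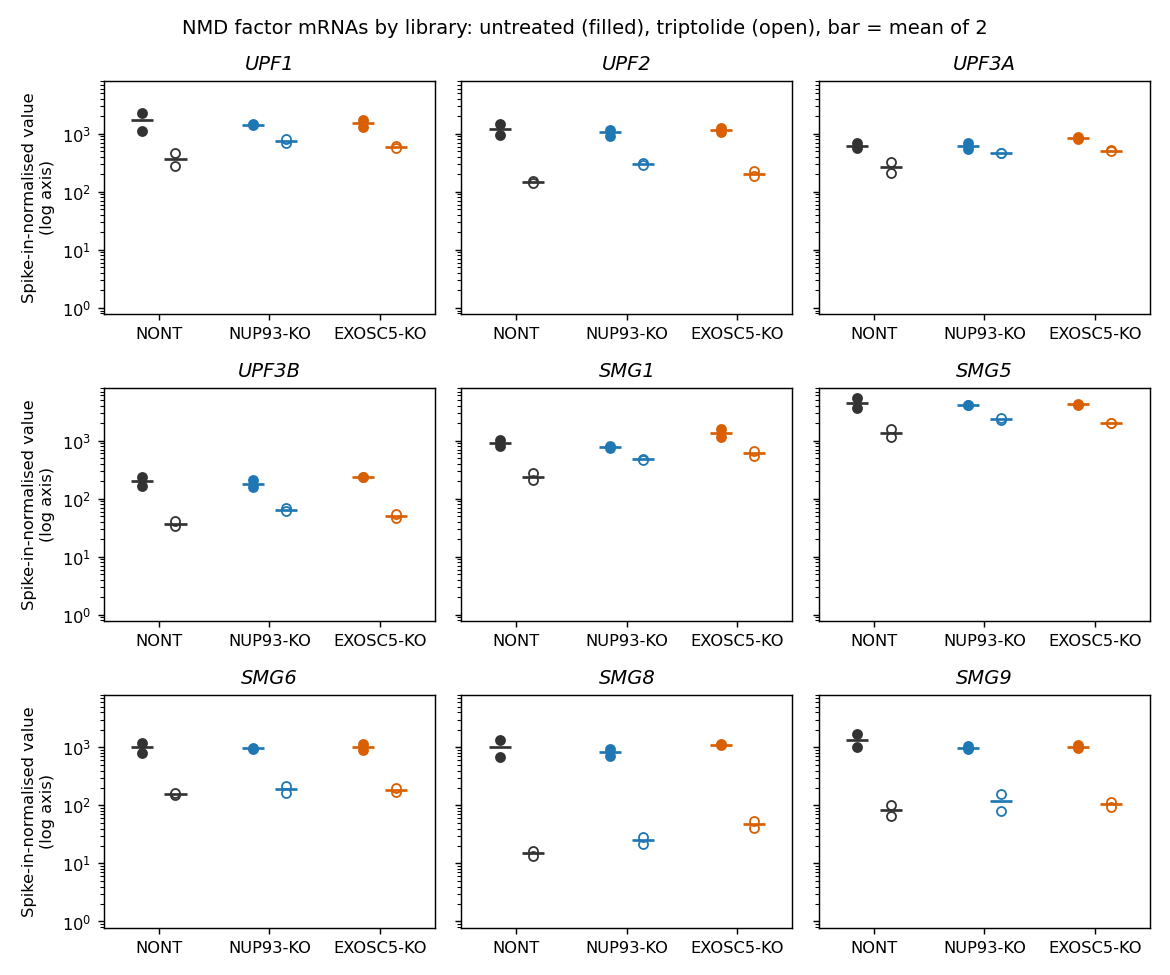
Spike-in-normalised values (vertical log axis) of the 9 NMD factor mRNAs in each of the 12 libraries, by genotype, with filled points for untreated, open points for triptolide and bars for the mean of 2 libraries. The open points lie below the filled points of the same genotype in every panel, least in UPF3A and most in SMG8, whose treated values are 13.5 to 54.8.

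The first comparison asked how much of each mRNA was left after 8 h of triptolide. All 9 mRNAs were lower in both treated libraries than in both untreated libraries of the same genotype, which was also true of 94.8%, 79.1% and 88.0% of all genes tested. The factors spread from SMG8, of which 1.49% to 4.30% remained by genotype, to UPF3A, of which 42.9% to 75.0% remained. In these bulk libraries a lower value cannot be told apart between fewer cells that hold the mRNA and less of it per cell.

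SMG8 and SMG9, the regulators of the SMG1 kinase, lost the most. SMG8 measured 677 and 1345 in the untreated NONT libraries and 16.7 and 13.5 in the treated ones. NUP93-KO libraries held 716 and 926 before the drug against 21.7 and 28.2 after it. EXOSC5-KO libraries held 1142 and 1088 against 41.1 and 54.8. No treated library came near an untreated one, and the treated values rest on about 25 to 67 reads. The log2 change of SMG8 on the spike-in scale was −5.90, −4.99 and −4.52 (SE 0.32 each, limma adjusted p = 2.0e-10, 4.5e-09 and 9.8e-09). In NONT 1.92% of the genes tested lay below it.

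SMG9 measured 1001 and 1711 in untreated NONT, 104 and 65.4 with triptolide. In NUP93-KO it was 933 and 1044 without drug, 155 and 80.4 with it. In EXOSC5-KO it was 1089 and 984 without drug, 115 and 95.05 with it. The groups were far apart in each genotype, although the treated replicates of NUP93-KO differed more than those of the others. This left 6.23%, 11.9% and 10.1% of SMG9, with log2 changes of −3.98, −3.13 and −3.30 (SE 0.32 each, limma adjusted p = 1.1e-08, 4.2e-07 and 2.1e-07).

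SMG1, the kinase that SMG8 and SMG9 bind, lost less. It measured 821 and 1026 in untreated NONT and 272 and 209 in treated NONT. NUP93-KO cells had 753 and 806, then 486 and 460.3. EXOSC5-KO cells had the highest untreated values, 1618 and 1133, then 551 and 658. The groups did not overlap, and 26.0%, 60.7% and 43.9% remained. The log2 changes of SMG1 were −1.94, −0.72 and −1.17 (SE 0.22 each, limma adjusted p = 7.0e-07, 0.012 and 0.00025), where the median of all genes was −1.62, −0.92 and −1.08.

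UPF1, the helicase at the centre of the pathway, kept 21.99%, 52.9% and 38.6%. Its untreated NONT replicates were far apart, 1113 and 2289, against 474 and 274 after triptolide. NUP93-KO had 1425 and 1459, against 700.2 and 826. EXOSC5-KO had 1754 and 1304, against 607 and 575. The groups did not overlap, but single pairings of a treated with an untreated NONT library gave anything from 11.96% to 42.6%. The log2 changes of UPF1 were −2.14, −0.92 and −1.36 (SE 0.30 each, limma adjusted p = 5.5e-06, 0.014 and 0.00081).

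Among the bridging factors, UPF2 and UPF3B fell further than UPF3A. For UPF2, NONT libraries showed 959 and 1471 before and 155 and 140.2 after triptolide. NUP93-KO libraries showed 927 and 1183 before, 315 and 286 after, and EXOSC5-KO libraries 1244 and 1096 before, 228 and 184 after. Each genotype was clearly separated by treatment, with 12.1%, 28.5% and 17.6% of UPF2 left and log2 changes of −3.00, −1.80 and −2.50 (SE 0.23 each, limma adjusted p = 8.0e-09, 5.9e-06 and 1.5e-07).

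UPF3B, the main UPF3 protein in most cells, had the lowest untreated values of the 9. They were 165 and 232 for NONT, falling to 33.1 and 40.6. They were 156 and 206 for NUP93-KO, falling to 68.1 and 60.7, and 233 and 236 for EXOSC5-KO, falling to 45.9 and 53.5. The share of UPF3B left was 18.6%, 35.6% and 21.2% (log2 changes −2.39, −1.47 and −2.22, SE 0.31 each, limma adjusted p = 2.8e-06, 0.00071 and 1.1e-05). UPF3A, its weaker paralog, showed 561 and 692 in untreated NONT, then 325 and 212. NUP93-KO showed 555 and 695 of it, then 470.2 and 468, and EXOSC5-KO 884 and 815, then 524 and 506. UPF3A thus kept 42.9%, 75.0% and 60.7%, more than any other member in each genotype. Its log2 changes were −1.24, −0.41 and −0.72 (SE 0.23 each, limma adjusted p = 9.7e-05, 0.14 and 0.011), and the one in NUP93-KO did not pass the threshold although the libraries did not overlap.

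The effectors also differed from each other. For SMG6, the endonuclease, untreated NONT gave 800.2 and 1202 and treated NONT 150.4 and 166. NUP93-KO gave 939.9 and 979, then 216 and 163, and EXOSC5-KO 1168 and 899, then 172 and 198. The shares left, 15.8%, 19.8% and 17.9%, came with pairing ranges that overlapped between all genotypes, and the log2 changes were −2.63, −2.35 and −2.47 (SE 0.24 each, limma adjusted p = 5.1e-08, 4.7e-07 and 2.4e-07). SMG5, the most abundant member, gave 3659 and 5335 in untreated NONT, then 1574 and 1167. NUP93-KO gave 4042 and 4107, then 2279 and 2488, and EXOSC5-KO 4328 and 4135, then 2003 and 2049. Of SMG5 30.5%, 58.5% and 47.9% remained, with log2 changes of −1.70, −0.77 and −1.06 (SE 0.20 each, limma adjusted p = 1.0e-06, 0.0037 and 0.00024).

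On the spike-in scale 9 of 9 members were called lower in NONT, where 90.0% of all genes tested were. In NUP93-KO 8 of 9 were, with UPF3A outside and a background of 55.1%, and in EXOSC5-KO 9 of 9 were, with a background of 64.3%. limma called 0 members higher in any genotype, where 0.0507%, 0.138% and 0.0796% of genes were, and 0 had an unadjusted p under 0.05 in that direction. The median member changed by −2.39, −1.47 and −2.22, beside −1.62, −0.92 and −1.08 for all genes. Without NUP93-KO untreated replicate 2, UPF1 and SMG1 no longer passed in NUP93-KO (−0.90 and −0.67, adjusted p = 0.058 and 0.074) and 6 members were called. UPF3A in EXOSC5-KO was −0.66 (adjusted p = 0.075) without EXOSC5-KO untreated replicate 1 and −0.69 (adjusted p = 0.062) without triptolide replicate 2, from −0.72.

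Relative to the typical gene, the 9 mRNAs separated into 3 sets. Averaged over the genotypes, UPF2, UPF3B, SMG6, SMG8 and SMG9 lost more than the typical gene, which 37.1% of all genes tested did by the same rule, UPF3A lost less, as did 34.9%, and UPF1, SMG1 and SMG5 did not pass the test. SMG8 changed by −3.95 (SE 0.12, limma adjusted p = 1.2e-09) and SMG9 by −2.26 (SE 0.16, adjusted p = 2.6e-07), and 2.36% and 10.0% of genes lay below them. SMG6 changed by −1.27 (SE 0.11, adjusted p = 1.2e-06), UPF2 by −1.23 (SE 0.08, adjusted p = 1.3e-07) and UPF3B by −0.82 (SE 0.14, adjusted p = 0.00028). These 5 were lower in all 3 genotypes, although UPF3B in NUP93-KO missed the threshold (−0.57, SE 0.24, adjusted p = 0.065).

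UPF3A was higher by 0.42 (SE 0.07, limma adjusted p = 0.00034) relative to the typical gene. On that scale it measured 445 and 381 in untreated NONT against 608 and 489 after triptolide, 405 and 460.4 against 628 and 592 in NUP93-KO, and 525 and 523 against 688 and 659 in EXOSC5-KO, without overlap in any genotype. When all libraries were given equal totals the value for UPF3A was 0.11 (adjusted p = 0.22), and on the spike-in scale it was −0.79, so its direction depends on the scale.

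SMG5 followed the typical gene closely, with a mean change of 0.03 (SE 0.04, limma adjusted p = 0.44) and a 95% interval of −0.05 to 0.11, but it was called lower at −0.28 with equal totals (adjusted p = 4.4e-05). SMG1 was at −0.07 (SE 0.08, adjusted p = 0.49, interval −0.25 to 0.11) and UPF1 at −0.26 (SE 0.11, adjusted p = 0.051, interval −0.51 to −0.02). UPF1 lay at the edge of the threshold: it passed with a pseudocount of 5 (adjusted p = 0.048), a minimum of 50 (0.049) or equal totals (0.00079), and also without NONT untreated replicate 1 (0.011), NONT triptolide replicate 1 (0.014) or EXOSC5-KO untreated replicate 2 (0.035). Equal totals move the median gene itself by −0.32 on the log2 scale.

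**Figure D2:**
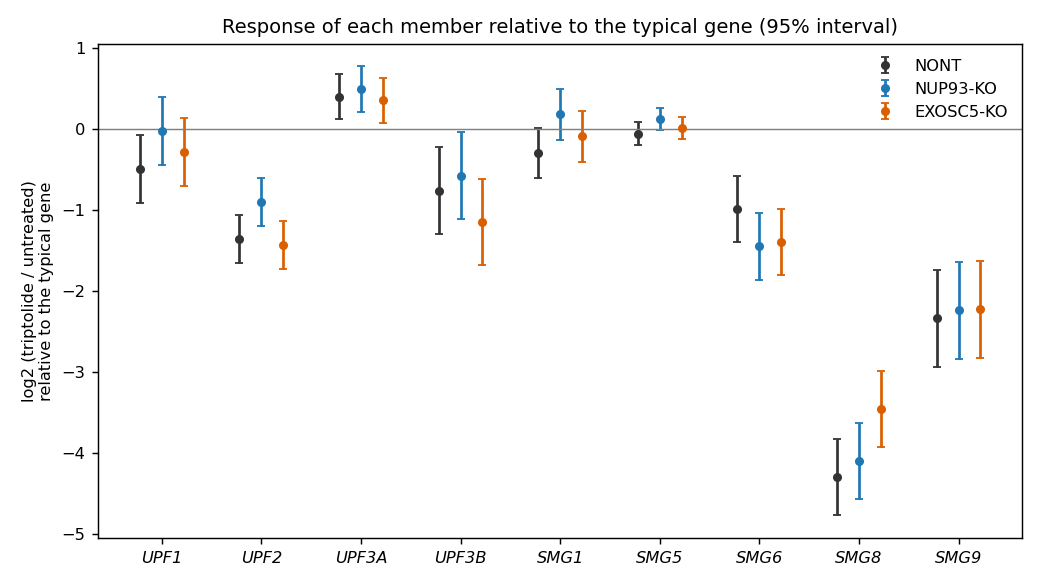
Log2 change with triptolide relative to the typical gene (vertical axis, points are limma estimates and bars are 95% intervals) of each member in NONT, NUP93-KO and EXOSC5-KO, 2 libraries per group. SMG8 lies at −4.29, −4.10 and −3.45, SMG5 within 0.13 of 0, and UPF3A above 0 at 0.40, 0.50 and 0.36, a sign that is negative on the spike-in scale.

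By genotype on this relative scale, 6 members were called lower and 1 higher in NONT (backgrounds 30.3% and 27.2%), 4 lower and 1 higher in NUP93-KO (29.7% and 26.7%), and 5 lower and 1 higher in EXOSC5-KO (28.7% and 26.2%). The sixth in NONT was UPF1 at −0.49 (SE 0.19, limma adjusted p = 0.045), whose treated and untreated libraries overlapped on this scale. Without NONT untreated replicate 2 it was −0.23 (adjusted p = 0.36), and without NONT triptolide replicate 2 it was −0.24 (adjusted p = 0.35).

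The member called higher was UPF3A in each genotype, and each of these calls was lost when certain libraries were left out. In NONT it changed by 0.30 (limma adjusted p = 0.13) without untreated replicate 2 and by 0.26 (adjusted p = 0.13) without triptolide replicate 1. In NUP93-KO it changed by 0.41 (adjusted p = 0.051) without untreated replicate 1. In EXOSC5-KO the value for UPF3A stayed between 0.33 and 0.39 when any of its 4 libraries was left out, about its full value of 0.36, with adjusted p between 0.070 and 0.12. UPF3B in NONT was −0.74 (adjusted p = 0.081) without untreated replicate 1, −0.77 (adjusted p = 0.070) without untreated replicate 2 and −0.45 (adjusted p = 0.15) without triptolide replicate 1.

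**Figure D3:**
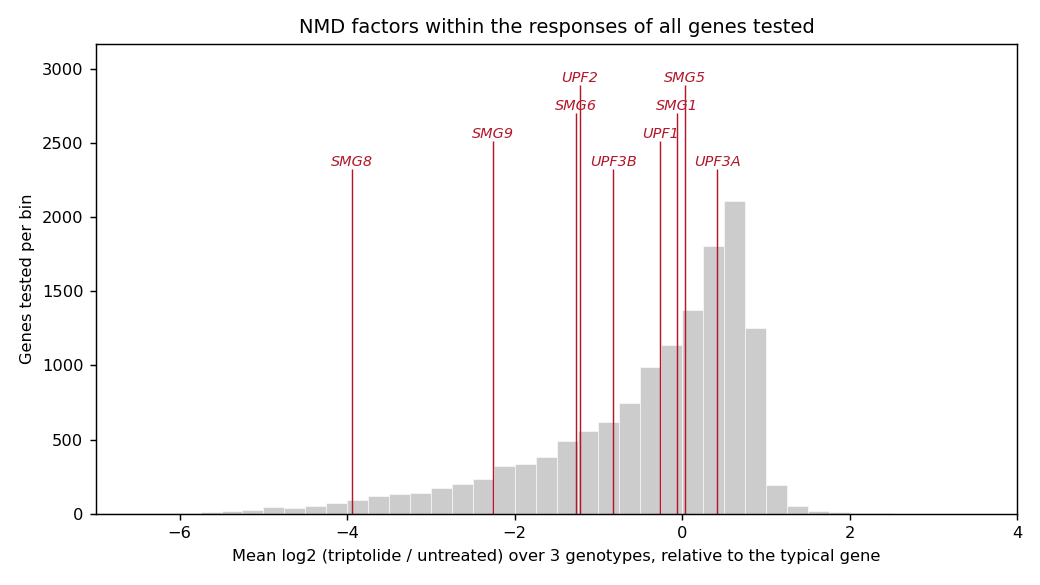
Mean log2 change with triptolide over the 3 genotypes relative to the typical gene (horizontal axis) for the 13811 genes tested (vertical axis, genes per bin), with the 9 members as labelled lines. The members run from the lower tail, SMG8 at −3.95, to UPF3A at 0.42, next to the peak of the distribution.

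Ratios between members within a library do not depend on the spike-in or on any rescaling. They are given as a description, for pairs that work together, and the pairs were chosen with the responses known. Averaged over the genotypes, the first member of each pair had lost more than the typical gene and the second had not been called so. A fall of the ratio was therefore set by that choice and is no separate evidence. SMG8 over SMG1 was 0.706 to 1.31 in the 6 untreated libraries and 0.0446 to 0.0833 in the 6 treated libraries. SMG9 over SMG1 was 0.673 to 1.67 and 0.144 to 0.381. UPF3B over UPF3A was 0.263 to 0.335 and 0.0875 to 0.191. In each of these pairs the ranges were apart: the kinase mRNA fell less than those of its regulators, and UPF3A less than its paralog. UPF2 over UPF1 was 0.642 to 0.862 without drug and 0.321 to 0.512 with it, and SMG6 over SMG5 was 0.218 to 0.270 and 0.0655 to 0.142, again without overlap. The deposited values are per gene and not per length, so these ratios describe change and not the balance of transcripts.

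**Figure D4:**
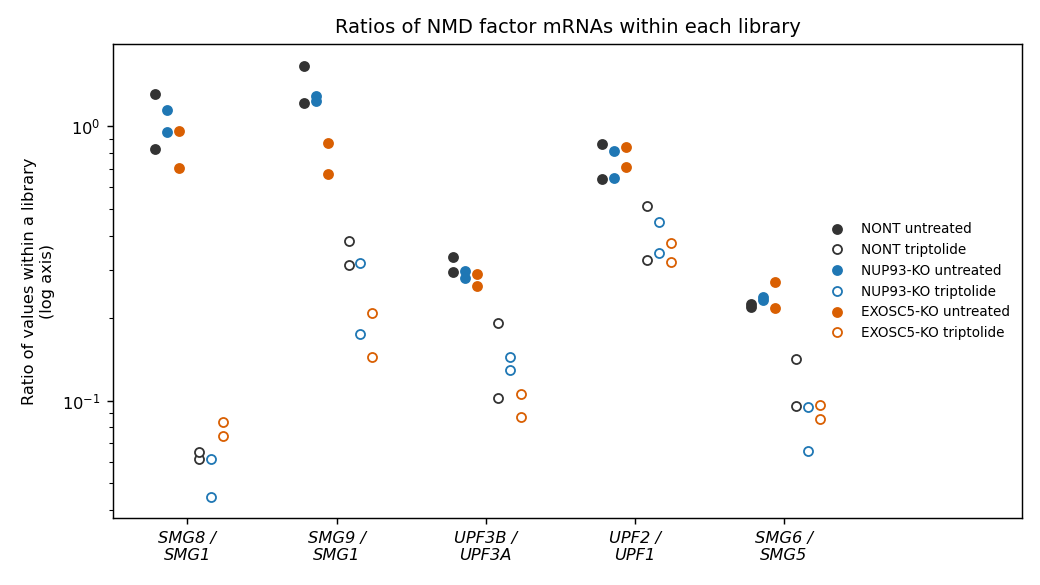
Ratio of the values of 2 members within a library (vertical log axis) for 5 pairs, filled points for the 6 untreated and open points for the 6 triptolide libraries, coloured by genotype. Treated and untreated ranges are apart in all 5 pairs, widest for SMG8 over SMG1 (0.706 to 1.31 against 0.0446 to 0.0833). The pairs were chosen with the responses of the members known.

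The transcript features were set beside these responses. Over all annotated genes tested, those with 1 to 5 exons had a median change relative to the typical gene of −0.47, against 0.04 with 6 to 10, 0.07 with 11 to 20 and 0.13 with more than 20. SMG8, with 4 exons, lay far below the first median at −3.95, and SMG1, with 63, lay at −0.07. Genes with TATTTAT in the 3′ UTR had a median of −0.21 and those without it 0.08. The 3 members with it were SMG8 at −3.95, UPF1 at −0.26 and UPF3A at 0.42, among them the member that lost the most and the one that lost the least. Genes with an upstream ATG had a median of −0.29 and those without 0.15. The 4 members with one were SMG9 at −2.26, UPF2 at −1.23, SMG1 at −0.07 and SMG5 at 0.03, so they ran from well below the typical gene to level with it. No test was made on 9 genes, and the features describe reference transcripts that need not be the ones these cells make.

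Without drug the knockouts were compared with NONT. limma called 0 members different from NONT in either knockout on either scale. The background was 0.0217% of genes for NUP93-KO and 0.521% for EXOSC5-KO on the spike-in scale and 0.912% and 5.70% relative to the typical gene. At an unadjusted p under 0.05, 0 members differed in NUP93-KO on either scale, where 4.20% and 10.5% of genes did. In EXOSC5-KO 1 did on the spike-in scale, SMG1, and 3 did relative to the typical gene, SMG1, UPF3A and SMG5, where 8.49% and 19.4% of genes did. SMG1 measured 1618 and 1133 there and 821 and 1026 in NONT, so the groups did not overlap. On the spike-in scale this held for 3 members in EXOSC5-KO, with UPF3A and UPF3B also above NONT (background 19.2%), and for 1 in NUP93-KO, SMG1 below NONT (background 12.8%). The difference of SMG1 in EXOSC5-KO was 0.56 (SE 0.22, limma adjusted p = 0.47, interval 0.09 to 1.03) on the spike-in scale and 0.46 (SE 0.14, adjusted p = 0.092) relative to the typical gene. For UPF3A the relative difference was 0.35 (SE 0.13, adjusted p = 0.15) and for SMG5 −0.16 (SE 0.06, adjusted p = 0.18). In NUP93-KO the widest interval on the spike-in scale was that of SMG8, −0.91 to 0.46 around −0.23, so differences within it were not detectable with 2 libraries per group.

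After triptolide more of several members was present in the knockouts than in NONT on the spike-in scale. In NUP93-KO 7 members, all but SMG6 and SMG9, lay above NONT without overlap, as did 75.6% of genes, and in EXOSC5-KO 8 did, all but SMG9, as did 75.1%. In NUP93-KO, 6 of 9 were called higher, beside 41.9% of all genes tested: UPF1 by 1.08 (SE 0.30, limma adjusted p = 0.014), UPF2 by 1.02 (SE 0.23, adjusted p = 0.0070), SMG1 by 0.99 (SE 0.22, adjusted p = 0.0066), UPF3A by 0.83 (SE 0.23, adjusted p = 0.013), SMG5 by 0.81 (SE 0.20, adjusted p = 0.0097) and UPF3B by 0.79 (SE 0.31, adjusted p = 0.0496). The median of all genes was itself higher by 0.66. Relative to the typical gene 0 members were called by limma in NUP93-KO, where 6.15% of genes were, and 4 had an unadjusted p under 0.05: UPF2 at 0.35, SMG1 at 0.31, SMG5 at 0.14 and SMG6 at −0.42, a threshold that 21.2% of genes passed.

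The 6 calls depended on which libraries entered. Without NONT triptolide replicate 2, 0 members passed on the spike-in scale, with UPF2 at 0.95 (limma adjusted p = 0.062), UPF3B at 0.94 (adjusted p = 0.12), SMG1 at 0.79 (adjusted p = 0.080), UPF1 at 0.68 (adjusted p = 0.16), SMG5 at 0.60 (adjusted p = 0.12) and UPF3A at 0.53 (adjusted p = 0.17). All but UPF3B were smaller than with it. Without NUP93-KO triptolide replicate 2, UPF2 and SMG1 passed, while UPF1 (0.96), UPF3B (0.88), UPF3A (0.84) and SMG5 (0.75) did not, with adjusted p of 0.076 to 0.13.

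In EXOSC5-KO after triptolide, 4 of 9 members were called higher on the spike-in scale, beside 39.2% of all genes tested. SMG8 was higher by 1.60 (SE 0.32, limma adjusted p = 0.0031), SMG1 by 1.33 (SE 0.22, adjusted p = 0.00095), UPF3A by 0.97 (SE 0.23, adjusted p = 0.0063) and SMG5 by 0.58 (SE 0.20, adjusted p = 0.034). SMG8 and SMG1 were higher also relative to the typical gene, by 0.97 (SE 0.21, adjusted p = 0.014) and 0.67 (SE 0.14, adjusted p = 0.012), where 6.66% of genes were called higher. On that scale SMG8 was at 53.9 and 71.4 in EXOSC5-KO and at 31.2 in both NONT libraries, and SMG1 at 722 and 857 against 509 and 481. These values do not overlap, but the SMG8 values come from 44 and 67 reads against 28 and 28. SMG1 already stood higher in EXOSC5-KO without drug on that scale, at 961 and 728 against 651 and 565. That untreated difference was 0.46 and was not called, so the 0.67 is not all a difference in response. SMG8 overlapped NONT without drug, at 678 and 699 against 537 and 740. Without NONT triptolide replicate 2 SMG8 stayed at 0.97 (adjusted p = 0.052) and SMG1 at 0.62 (adjusted p = 0.063). Without EXOSC5-KO triptolide replicate 2 they were 0.77 (adjusted p = 0.090) and 0.55 (adjusted p = 0.085), so that neither was called in these fits. On the spike-in scale UPF3A (0.66, adjusted p = 0.098) and SMG5 (0.36, adjusted p = 0.30) lost their calls without NONT triptolide replicate 2, which left 2. With each library set to the same sum of mitochondrially encoded mRNAs, 0 members were called in either knockout.

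**Figure D5:**
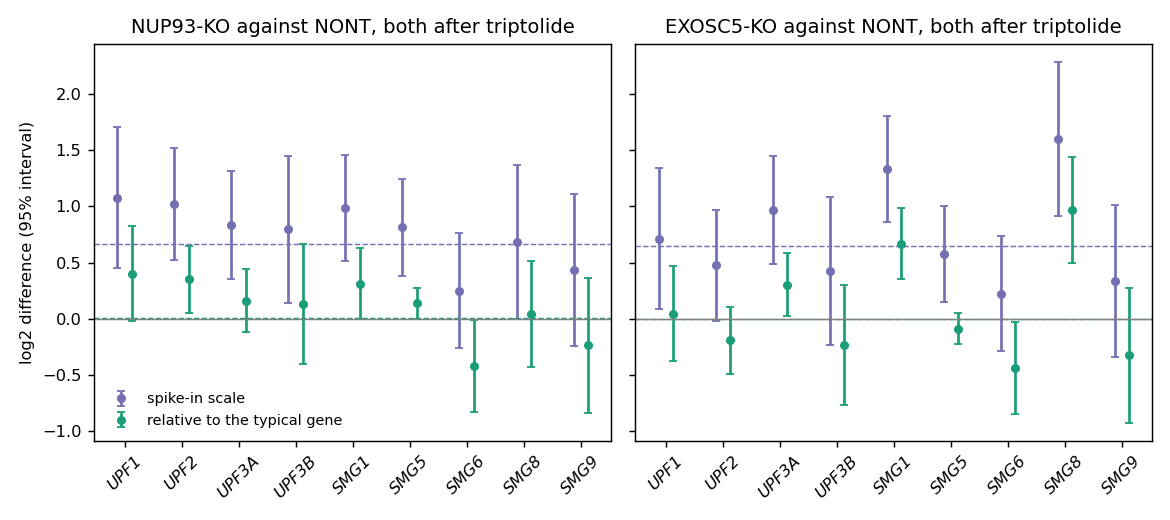
Log2 difference of NUP93-KO (left) and EXOSC5-KO (right) from NONT, all after triptolide, for each member (vertical axis, points are limma estimates and bars 95% intervals, 2 libraries per group), on the spike-in scale and relative to the typical gene. Dashed lines mark the median of all genes, 0.66 and 0.65 on the spike-in scale. Relative to the typical gene, SMG1 at 0.67 and SMG8 at 0.97 in EXOSC5-KO were the members called. SMG1 was at 0.46 in EXOSC5-KO without drug, which was not called.

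The response itself was compared between genotypes by the difference of the log2 changes. limma called 0 members in NUP93-KO, where 0.775% of genes were called on the spike-in scale and 0.0145% relative to the typical gene, and 0 in EXOSC5-KO, where 0.333% and 0.0796% were. An unadjusted p under 0.05 with a smaller loss was reached on the spike-in scale by 5 members for NUP93-KO and 3 for EXOSC5-KO, where 41.3% and 23.1% of genes did so, and relative to the typical gene by 2 and 1, where 5.83% and 5.88% did. In NUP93-KO the smallest adjusted p was that of SMG1, with 1.22 (SE 0.32, adjusted p = 0.059, interval 0.56 to 1.89), while SMG6 was at 0.28 (SE 0.34, adjusted p = 0.52). In EXOSC5-KO the largest difference was that of SMG8, with 1.37 (SE 0.46, adjusted p = 0.17, interval 0.40 to 2.34) on the spike-in scale and 0.84 (SE 0.30, adjusted p = 0.42) relative to the typical gene. These contrasts share the NONT libraries, and they moved with them. Without NONT untreated replicate 1, SMG1 in NUP93-KO was at 1.38 and SMG8 in EXOSC5-KO at 1.87 on the spike-in scale. Without NONT triptolide replicate 1, SMG1 in NUP93-KO was at 1.41 on that scale.

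The wider pathway was described with a list of 16 genes that assist NMD or form the exon junction complex. Relative to the typical gene and averaged over the genotypes, 5 were called lower and 9 higher, with a median of 0.22, where 37.1% and 34.9% of all genes were called. The ATPases RUVBL1 (0.77, SE 0.05, limma adjusted p = 8.1e-08) and RUVBL2 (0.54, SE 0.04, adjusted p = 2.3e-07), which help to assemble the SMG1 complex, were among the higher. So were the junction proteins MAGOH (0.39) and MAGOHB (0.45), the cap-binding proteins NCBP1 (0.40) and NCBP2 (0.40) and the release factor GSPT1 (0.30). At the other end, PNRC2, which links UPF1 to decapping, changed by −4.47 (SE 0.11, adjusted p = 4.8e-10) and GSPT2, the intronless paralog of GSPT1, by −4.004 (SE 0.10, adjusted p = 4.6e-10). PNRC2 went from 929 and 1256 to 20.3 and 16.5 in NONT. RNPS1 was at −1.06 and DHX34 at −0.73. On the spike-in scale all 16 were called lower in NONT, as were 90.0% of all genes.

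Of 8 mRNAs described as NMD targets, 6 were called lower and 0 higher relative to the typical gene, with a median of −1.90 (37.1% and 34.9% over all genes). GADD45B changed by −4.22 (SE 0.36, limma adjusted p = 1.3e-06), DDIT3 by −2.73 (SE 0.22), GADD45A by −2.68 (SE 0.07), ATF3 by −2.51 (SE 0.16), ATF4 by −1.29 (SE 0.04) and TBL2 by −0.83 (SE 0.08). UPP1 was at 0.03 and SLC7A11 at 0.17, and neither passed. Most encode proteins of the stress response or growth arrest, and their levels are not a measure of NMD activity. GADD45A, a growth arrest gene, was at 645 and 935 in NONT untreated and 25.3 and 22.5 after triptolide, but at 854 and 1049 and then 143 and 155 in NUP93-KO. This difference in response passed the test on both scales, with 1.59 (SE 0.17, adjusted p = 0.020) relative to the typical gene and 2.31 (SE 0.35, adjusted p = 0.012) on the spike-in scale. ATF4, a transcription factor of the stress response, was lower without drug by −0.38 (adjusted p = 0.026) in NUP93-KO and by −0.36 (adjusted p = 0.011) in EXOSC5-KO relative to the typical gene. In untreated EXOSC5-KO cells GADD45A was higher by 0.56 (adjusted p = 0.025) on that scale, and DDIT3 by 1.38 (SE 0.39, adjusted p = 0.070) without passing. The spike-in values of DDIT3 in these cells were 164 and 136, where those of the control were 46.4 and 60.0. By limma 0 of the 8 were called on the spike-in scale in untreated cells of either knockout, where 0.0217% and 0.521% of genes were. At an unadjusted p under 0.05 were ATF4 in NUP93-KO and GADD45A and DDIT3 in EXOSC5-KO, where 4.20% and 8.49% of genes were.

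Further decay factors were set beside the members in 2 lists of 11 genes. The subunits of the CCR4-NOT deadenylase had a median of −1.16 relative to the typical gene, with 9 called lower and 0 higher, among them CNOT6L at −3.50 (SE 0.20, limma adjusted p = 5.15e-08). Decapping factors and XRN exonucleases had a median of −0.41, with 6 lower and 1 higher, XRN2 at 0.47 (SE 0.04, adjusted p = 1.1e-06), beside the same 37.1% and 34.9% of all genes. The NMD factors, with a median of −0.82, lay between these groups, and all genes were at −0.02. No test of the difference between the groups was made.

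Profiles over the 12 libraries were compared on the relative scale, as a description of points that share libraries and treatment. SMG6 and SMG9 were the most alike members (Pearson r = 0.96), and SMG9 was also the closest to UPF2 (r = 0.95) and SMG8 (r = 0.94), while UPF2 was the closest to UPF3B (r = 0.93). UPF3A was most alike SMG1 (r = 0.39) and least alike SMG6 (r = −0.85). The genes whose profile was nearest to the median of the members, among 10372 with an untreated mean of at least 100, were EXOSC10 (r = 0.99), BAZ1B, ZNF691, ZNF384 and DIS3 (r = 0.98 each). EXOSC10 and DIS3 are ribonucleases of the RNA exosome.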

How the data were processed

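Poly(A) RNA of 12 libraries was measured. Per the study's methods, the authors pseudoaligned reads with kallisto 0.46.1 (GRCh38 transcriptome with ERCC sequences, strand-specific), summed transcripts per gene with tximport, divided by DESeq2 size factors estimated on 92 ERCC transcripts, and kept protein-coding genes. The signal the authors deposited is therefore a spike-in-normalised value and not a read count. Between 21.3% and 31.8% of low values were whole multiples (tolerance 0.01) of the worth of 1 read, so whole reads were not recovered, no count model was used, and depths and read numbers are approximate. An error in cell number or spike-in volume moves all genes of a library together.

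Values were analysed as log2(value + 1), which understates changes of low genes, with limma 3.58.1 in R 4.3.3 (6 group means, eBayes with trend, two-sided, Benjamini-Hochberg over 13811 genes, threshold 0.05). Features and sequences came from GENCODE release 44, and 19584 of 22379 gene IDs matched a symbol. An exact permutation test of 2 against 2 libraries cannot go below p = 0.333 and was not used. Members, gene lists, ratios and features were chosen with earlier results of these data known. A gene of the auxiliary list is not reported here and was left out of its counts. All members were named. Only some genes of the further lists were named, so the counts of calls in those lists include genes that are not named. The fit was tested on simulated data. Alternatives were another pseudocount (5), no filter or a minimum of 50, no trend, the replicate number as a block, other scalings and each library left out. Python 3.11.15, NumPy 2.4.6, pandas 2.3.3 and matplotlib 3.10.9 were used for the rest.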

Additional observations from a re-analysis of the deposited data

How the results depend on the processing

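Depth limits SMG8 most, with about 25 to 67 reads per treated library. Relative to the typical gene, no pairing of the samples by replicate number was seen. Over 15 pairs of groups the correlation of replicate differences was −0.05 to 0.03, with 0 over 0.1. That scale removes shifts of whole libraries, so such shifts shared by a replicate number could not be seen. With the number as a block, 5 members instead of 6 were called higher in NUP93-KO after triptolide on the spike-in scale, since UPF3B moved to an adjusted p of 0.058, and 5 instead of 6 were called lower in NONT relative to the typical gene, since UPF1 moved to 0.056. No other count of members changed under the block.

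On the spike-in scale, with equal totals 0 members were higher in NUP93-KO and 2 in EXOSC5-KO after triptolide, and with equal mitochondrial sums 0 in both. Relative to the typical gene, equal totals gave 0 higher members in NONT, NUP93-KO, EXOSC5-KO and their mean, and 8 lower members in the mean. The construction of that scaling lowers the median gene by 0.29 to 0.36. For the alternatives here and below, the share of all genes called was not counted. The counts of members under them therefore have no background to be read against. Among the changes of sign under equal totals were UPF3A at 0.092 in NONT, 0.16 in NUP93-KO, 0.073 in EXOSC5-KO and 0.11 in the mean (spike-in scale), and SMG5 at −0.21 in NUP93-KO, −0.27 in EXOSC5-KO and −0.28 in the mean (relative). SMG5 in EXOSC5-KO against NONT after triptolide was −0.25 with equal mitochondrial sums. With a minimum of 50, 3 members differed in response in NUP93-KO on the spike-in scale, where fewer genes were tested. Without the trend, 0 members were called higher in the triptolide response of EXOSC5-KO relative to the typical gene. UPF3A was at 0.36 in that fit (limma adjusted p = 0.055), and the cause was not tested.

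Leaving out 1 library each, members higher after triptolide ranged from 0 to 7 in NUP93-KO and from 2 to 6 in EXOSC5-KO on the spike-in scale, and from 0 to 2 in EXOSC5-KO relative to the typical gene. Members that differed in response ranged from 0 to 8 in NUP93-KO and from 0 to 5 in EXOSC5-KO on the spike-in scale. Members higher than the typical gene ranged from 0 to 1 in each of NONT, NUP93-KO and EXOSC5-KO. Over all members, contrasts and alternatives, 89 single values lost and 44 gained the threshold with the same sign. The sign changed for 4 values that had been called and for 96 that had not, of which 3 were called under the alternative.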
